A study of Mus musculus with 4 samples.

Results

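A set of 6 genes that respond to fibroblast growth factor (FGF) signalling through the kinase ERK was followed in the embryonic mouse cochlea, the hearing part of the inner ear. The set held the Sprouty genes Spry1, Spry2 and Spry4, the phosphatase gene Dusp6, and the transcription factor genes Etv4 and Etv5. The genes were taken from a list of 6 Ensembl gene IDs, and 6 of 6 were found among the 23879 genes of the table. The study compared whole cochleae of N-myc ko embryos with whole cochleae of wild-type embryos, 2 arrays in each group, all at embryonic day 15 and all of the strain background 129/Sv and CD-1. Embryos were sorted into the groups by PCR genotyping. N-myc, encoded by Mycn, belongs to the MYC transcription factors. The sources used here do not give the N-myc allele, the cells in which it was lost, or whether a sample held 1 embryo or several. Mycn itself and markers of the cochlea were not analysed here, since no table at hand pairs the IDs with names, so the labels were not checked against the data.

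FGF receptors are tyrosine kinases that pass their signal through RAS and the RAF, MEK and ERK kinases. ERK activity switches on a set of genes, part of which feed back on the pathway. Sprouty proteins dampen the signal between the receptor and ERK, DUSP6 removes the activating phosphates from ERK itself, and ETV4 and ETV5 are ETS family factors that carry the signal to the genome. In the cochlea FGF signalling is known for its part in the formation of the organ of Corti and its pillar cells, and Spry2 is known to be needed there for the normal array of supporting cells. Because the transcripts of these genes follow ERK activity in many tissues, they are often read as its reporters.

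Of the 6 genes, 4 fell in N-myc ko cochleae (Spry1, Spry4, Dusp6 and Etv4), 2 did not pass the test (Spry2 and Etv5), and 0 rose. A gene was called changed where the limma p, adjusted over all genes, was 0.14 or less. The design text presents genes up to a false discovery rate of 14%, but the test it names is significance analysis of microarrays (SAM), not limma. At that limit SAM called 5 of the 6 members and 32.9% of all genes lower. The widest fall was that of Spry1, which was 36.4% lower in N-myc ko cochleae. Spry4, Dusp6 and Etv4 were 21.0% to 23.7% lower. By the limma rule 19.8% of all genes were called lower and 14.9% called higher, and among genes of like brightness to a member 28% to 38.4% were called lower. Spry1 alone of the 6 was called at an adjusted p under 0.05, a limit at which 8.2% of all genes were called lower. That cut depended on the fit. Spry4 (limma adjusted p = 0.052) came to 0.0482 with a brightness trend, and Dusp6 came to 0.0499 with the robust trend. The share of all genes under 0.05 in those fits was not counted. Spry1 was also the only one called after the 4 arrays had been given one common distribution by quantile normalisation (10.1% of all genes called lower) or by cyclic loess normalisation (9.7% of all genes called lower).

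The RefSeq table of promoters (GRCm38.p6) held windows for 4 of the 6 genes, Spry1, Spry2, Dusp6 and Etv5. The 250 bases before the annotated start are shown for Spry1, the member with the widest fall, and for its relative Spry2, which did not pass the test. They are also shown for Dusp6, which was chosen because its window holds a motif searched for. The windows were searched on both strands for CACGTG, the E-box known to be bound by MYC proteins, and for CGGAAG, a form of the ETS core. Other forms of the ETS core were not searched for. Capitals mark the motif found, and all 3 are written 5′ to 3′ along the gene's strand.
Spry1 (chr3:37639697-37639946, plus strand): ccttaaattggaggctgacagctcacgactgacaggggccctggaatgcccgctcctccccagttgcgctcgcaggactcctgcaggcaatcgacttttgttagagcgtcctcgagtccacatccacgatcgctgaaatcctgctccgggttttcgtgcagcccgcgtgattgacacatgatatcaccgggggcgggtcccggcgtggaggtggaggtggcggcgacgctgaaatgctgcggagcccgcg
Spry2 (chr14:105896820-105897069, minus strand): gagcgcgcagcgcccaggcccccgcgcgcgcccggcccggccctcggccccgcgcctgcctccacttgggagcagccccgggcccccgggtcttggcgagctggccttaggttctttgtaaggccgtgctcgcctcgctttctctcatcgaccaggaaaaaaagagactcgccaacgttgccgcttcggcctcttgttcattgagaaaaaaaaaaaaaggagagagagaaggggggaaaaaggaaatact
Dusp6 (chr10:99262981-99263230, plus strand): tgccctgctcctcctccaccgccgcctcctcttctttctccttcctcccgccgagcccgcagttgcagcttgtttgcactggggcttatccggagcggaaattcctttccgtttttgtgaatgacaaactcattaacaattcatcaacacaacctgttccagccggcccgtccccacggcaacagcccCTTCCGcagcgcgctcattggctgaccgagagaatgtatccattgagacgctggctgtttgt
The letters CACGTG were in 0 of the 5 windows listed for these genes (Etv5 has 2 annotated starts), against 6.02% of all 32851 promoter windows of the same length. CGGAAG was in 1 of the 5 windows, that of Dusp6, where it reads CTTCCG on the shown strand and begins 62 bases before the start. Of all promoter windows 13.6% hold it. These matches describe the letters of the windows and were not set against any measure of binding.

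All values below are the authors' RMA expression values on the log2 scale. They are compared between arrays for 1 gene at a time, except in the pairs of related genes and in the choice of genes of like brightness. Which gene had the higher level was not read as a result. Spry1 (ENSMUSG00000037211) had values of 8.34 and 8.40 in N-myc ko and 8.97 and 9.08 in wild-type cochleae. Both N-myc ko arrays lay below both wild-type arrays, and the gap of 0.57 between the groups was wider than either gap between replicates (0.059 in N-myc ko and 0.11 in wild-type). The means were 8.37 ± 0.04 in N-myc ko and 9.02 ± 0.08 in wild-type cochleae (SD, n = 2 each), a log2 change of -0.65 (SE 0.10, limma adjusted p = 0.0183, 95% interval -0.88 to -0.42). The call was kept under each of the 14 alternative settings, with log2 changes from -0.71 to -0.45 and adjusted p between 0.00456 (the SAM false discovery rate) and 0.0719. In whole tissue, fewer cells that express a gene and less RNA per cell cannot be told apart, for this and for the other members.

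Spry4 (ENSMUSG00000024427), another Sprouty inhibitor, had values of 9.17 and 9.33 in N-myc ko and 9.68 and 9.59 in wild-type cochleae. The groups did not overlap and lay 0.26 apart, against a gap of 0.16 between the N-myc ko arrays and 0.091 between the wild-type arrays. The log2 change was -0.39 (SE 0.10, limma adjusted p = 0.052, 95% interval -0.63 to -0.14). With N-myc ko replicate 1 left out Spry4 was not called (log2 change -0.31, adjusted p = 0.217), nor with wild-type replicate 1 left out (-0.34, adjusted p = 0.168).

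Spry2 (ENSMUSG00000022114) had values of 8.64 and 8.79 in N-myc ko and 8.83 and 8.61 in wild-type cochleae, so that both N-myc ko values lay between the wild-type values. Its log2 change was -0.01 (SE 0.12, limma adjusted p = 0.956), with a 95% interval of -0.29 to 0.27. These arrays therefore bound a change of Spry2 to that interval and do not show that it was the same in both groups. The sign of so small a change varied with the scaling and with the arrays used. The change was 0.18 after quantile and 0.19 after cyclic loess normalisation, with no call in either case (limma adjusted p = 0.362 and 0.334). It was 0.065 without N-myc ko replicate 1 and 0.099 without wild-type replicate 1.

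The changes of the 3 Sprouty genes were set against each other through the difference of their values on each array, of which only the shift between the groups has a meaning. The value of Spry1 minus that of Spry2 was -0.30 and -0.39 in N-myc ko and 0.13 and 0.47 in wild-type cochleae, so that Spry1 changed by -0.64 relative to Spry2 (SE 0.17, 95% interval -1.39 to 0.10 in a linear model on 2 degrees of freedom). Spry4 changed by -0.37 relative to Spry2 (SE 0.065, 95% interval -0.65 to -0.097). The SE of this pair is small because its 2 N-myc ko differences were nearly equal (0.539 and 0.542, SD 0.0026, against an SD of 0.091 in wild-type). The pairs were not among the planned tests, and their intervals were not adjusted for the 4 pairs compared. Spry1 changed by -0.27 relative to Spry4 (SE 0.11, 95% interval -0.75 to 0.22). In all 3 comparisons the N-myc ko arrays lay wholly on one side of the wild-type arrays. Taken singly, 64.9% of all genes had groups that did not overlap, in either direction, and that share was not counted for pairs of genes. The 3 comparisons share their genes and are not independent. A two-sided exact permutation test gave p = 0.333 for each (0.333 after Benjamini-Hochberg adjustment over the 4 pairs compared), which is the smallest p that 2 arrays against 2 can give. Any difference in response between the Sprouty genes thus could not pass a permutation test in this design.

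Dusp6 (ENSMUSG00000019960), whose product inactivates ERK, had values of 9.997 and 9.854 in N-myc ko and 10.30 and 10.23 in wild-type cochleae. Both N-myc ko arrays were again the lower ones, 0.23 below the nearest wild-type array, against replicate gaps of 0.14 in N-myc ko and 0.071 in wild-type. The log2 change was -0.34 (SE 0.10, limma adjusted p = 0.0651, 95% interval -0.58 to -0.10). The call was kept without N-myc ko replicate 1 (adjusted p = 0.134) and lost when any other array was left out. The log2 change was then -0.27 without N-myc ko replicate 2 (adjusted p = 0.204), -0.30 without wild-type replicate 1 (0.197) and -0.38 without wild-type replicate 2 (0.141), in fits with fewer arrays.

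Etv4 (ENSMUSG00000017724), one of the ETS factors, had values of 8.13 and 8.03 in N-myc ko and 8.59 and 8.34 in wild-type cochleae. The groups did not overlap, but the gap of 0.22 between them was narrower than the gap of 0.25 between the wild-type replicates. The log2 change was -0.39 (SE 0.12, limma adjusted p = 0.0682, 95% interval -0.67 to -0.11). The call was kept without wild-type replicate 2 (log2 change -0.51, adjusted p = 0.0817) and lost without each other array, at -0.27 (adjusted p = 0.229) without wild-type replicate 1, and at -0.44 (adjusted p = 0.159) and -0.34 (0.184) without the first and the second N-myc ko array.

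Etv5 (ENSMUSG00000013089), the close relative of Etv4, had values of 8.69 and 8.82 in N-myc ko and 9.02 and 8.88 in wild-type cochleae. The groups were 0.064 apart, less than the gap within either group (0.12 in N-myc ko and 0.14 in wild-type). Its log2 change of -0.19 (SE 0.10, 95% interval -0.44 to 0.05) did not pass the test (limma adjusted p = 0.227). It passed only with significance analysis of microarrays (SAM), the test named in the design text, at a false discovery rate of 0.088, a setting that called 32.9% of all genes lower. After quantile normalisation its change was -0.0044 (limma adjusted p = 0.983), and without wild-type replicate 1 it was -0.13 (limma adjusted p = 0.566). The change of Etv4 minus that of Etv5 was -0.20 (SE 0.12, 95% interval -0.73 to 0.34), an interval that includes 0. The exact permutation test gave p = 0.333 here too and could give no less.

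**Figure D1:**
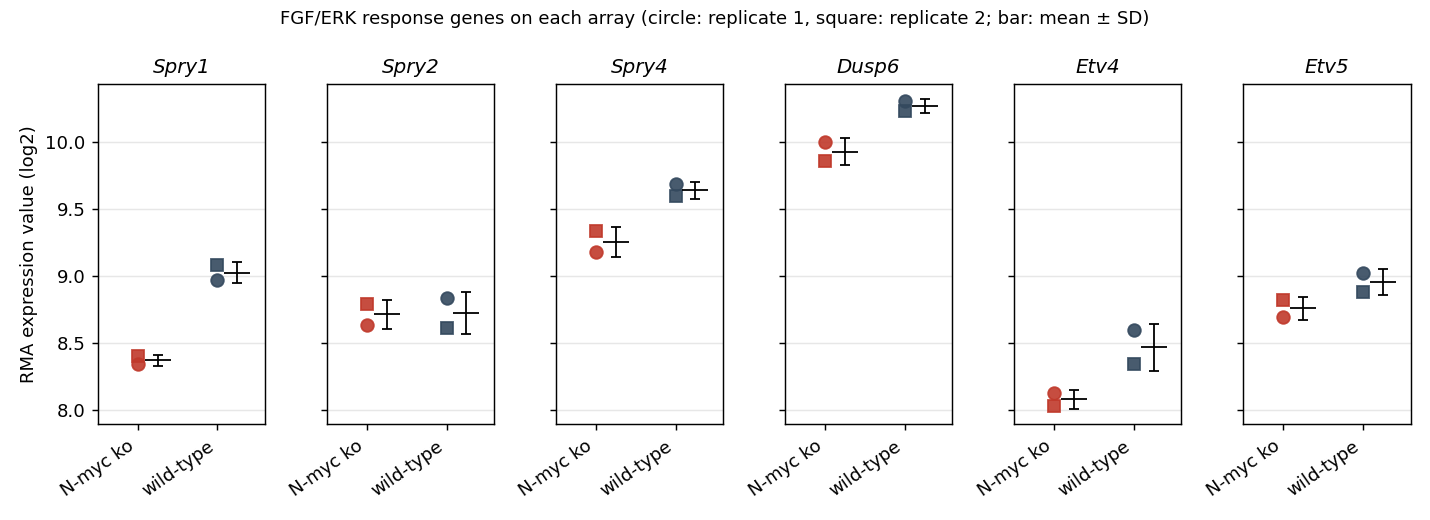
RMA expression values (log2, vertical axis) of the 6 genes on each array, N-myc ko in red and wild-type in dark blue, with the mean and SD of each group (n = 2) beside the points. The N-myc ko points lie below the wild-type points for every gene except Spry2, and the separation is widest for Spry1, at 0.57.

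Counted over the members, 5 of 6 (83.3%) had both N-myc ko arrays below both wild-type arrays, and 36.2% of all genes did so. That share was not counted among genes of like brightness. More of those genes were called lower (28% to 38.4%) than of all genes (19.8%), so 36.2% may be too low a yardstick. After quantile normalisation both N-myc ko arrays lay below both wild-type arrays for 3 of 6 members and 30.4% of all genes. They lay above both wild-type arrays for 1 member, Spry2, and for 27.8% of all genes. The median log2 change of the 6 was -0.36, against -0.03 over all genes. It was -0.20 after quantile and -0.19 after cyclic loess normalisation, against -0.0092 and -0.0013 over all genes. The median over all genes mixes dim and bright genes, which moved differently. On the deposited values the median change of genes of like brightness to a member lay between -0.22 and -0.13, closer to that of the members. Expressed relative to each gene's wild-type mean and averaged over the 6 genes, the members stood at -0.35 and -0.31 in the N-myc ko samples. They stood at 0.055 and -0.055 on the wild-type arrays. These wild-type values are equal and opposite by construction, since the wild-type mean was subtracted, and only their distance apart could vary. Matching averages were not made for genes of like brightness, so the part of the N-myc ko values shared with such genes was not tested. The replicate gaps of the members ranged from 0.059 to 0.25. For comparison, the robust SD of 1 array over all genes was 0.118 in N-myc ko and 0.116 in wild-type cochleae.

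Brightness, the mean log2 value of a gene over the 4 arrays, bears on these counts. The members have means between 8.27 and 10.10, a range in which the median gene was lower in N-myc ko cochleae. Each member was therefore set beside all other genes within 0.25 of its own mean, 1231 to 2004 genes per member. For Spry1 the median log2 change of these genes was -0.22 and their central 90% ran from -0.60 to 0.23. The change of Spry1 lay 0.44 below that median, outside the central 90%, and 3.61% of the genes of like brightness changed further downward. Its 95% interval lay wholly below the median of its neighbours in brightness, which held for 1 of the 6 members.

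The other called members stood closer to their neighbours in brightness. Spry4 lay 0.19 below a median of -0.19, Dusp6 lay 0.21 below a median of -0.13, and Etv4 lay 0.18 below a median of -0.21. All 3 were inside the central 90% of genes of like brightness, with 17.7%, 16.5% and 22.4% of those genes changed further downward. Spry2 lay 0.20 above the median of its neighbours, -0.21, and 81.7% of these changed further downward than Spry2. Etv5 lay within 0.018 of its median of -0.21. In all, 4 of the 6 members lay below and 2 above the median of genes of like brightness. The genes of like brightness called lower were 38.4% for Spry1, 37.1% for Spry4, 28% for Dusp6 and 38.3% for Etv4. The part of this shift in the calls of Spry4, Dusp6 and Etv4 was not tested. The normalisations that follow lower a shift shared by genes of like brightness, whatever its origin, and so cannot apportion it.

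**Figure D2:**
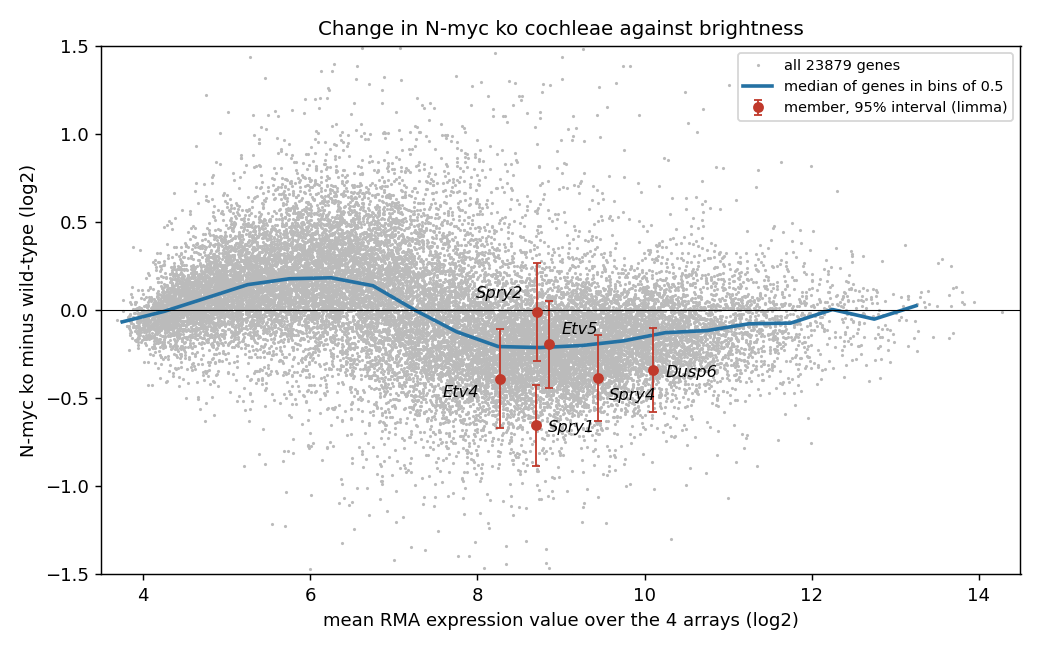
Log2 change, N-myc ko minus wild-type (vertical axis), against the mean RMA value over the 4 arrays (horizontal axis, log2) for all 23879 genes in grey, with the median per bin of 0.5 in blue (bins of under 20 genes left out) and the 6 members in red with 95% limma intervals. The axis is limited to changes of 1.5 in size, which leaves out 59 genes, none of them a member. Spry1 lies with its whole interval under the blue line, whereas the intervals of the other 5 genes cross it.

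Quantile normalisation, which gives all arrays the same distribution, brought the median change of the genes of like brightness close to 0 (-0.023 around Spry1). Spry1 then had values of 8.46 and 8.47 in N-myc ko and 8.89 and 8.96 in wild-type cochleae, a log2 change of -0.46 (limma adjusted p = 0.0402). The changes of the other 3 called genes were smaller and none of them was called, with -0.19 for Spry4 (limma adjusted p = 0.246), -0.20 for Dusp6 (0.285) and -0.21 for Etv4 (0.336). Both N-myc ko arrays then lay below both wild-type arrays for 3 of the 6 members (Spry1, Spry4 and Dusp6) and for 30.4% of all genes. The groups of Etv4 and Etv5 overlapped. For Spry2 both N-myc ko arrays lay above both wild-type arrays (8.77 and 8.85 in N-myc ko, 8.75 and 8.50 in wild-type), a change of 0.18 that was not called (limma adjusted p = 0.362). Cyclic loess gave -0.45 for Spry1 (limma adjusted p = 0.0394) and -0.18 to -0.22 for Spry4, Dusp6 and Etv4 (adjusted p between 0.244 and 0.336). Centring each array on its median, which leaves the shift with brightness in place, kept all 4 calls, while over all genes it gave 3566 lower and 4687 higher calls in place of 4719 lower and 3561 higher.

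**Figure D3:**
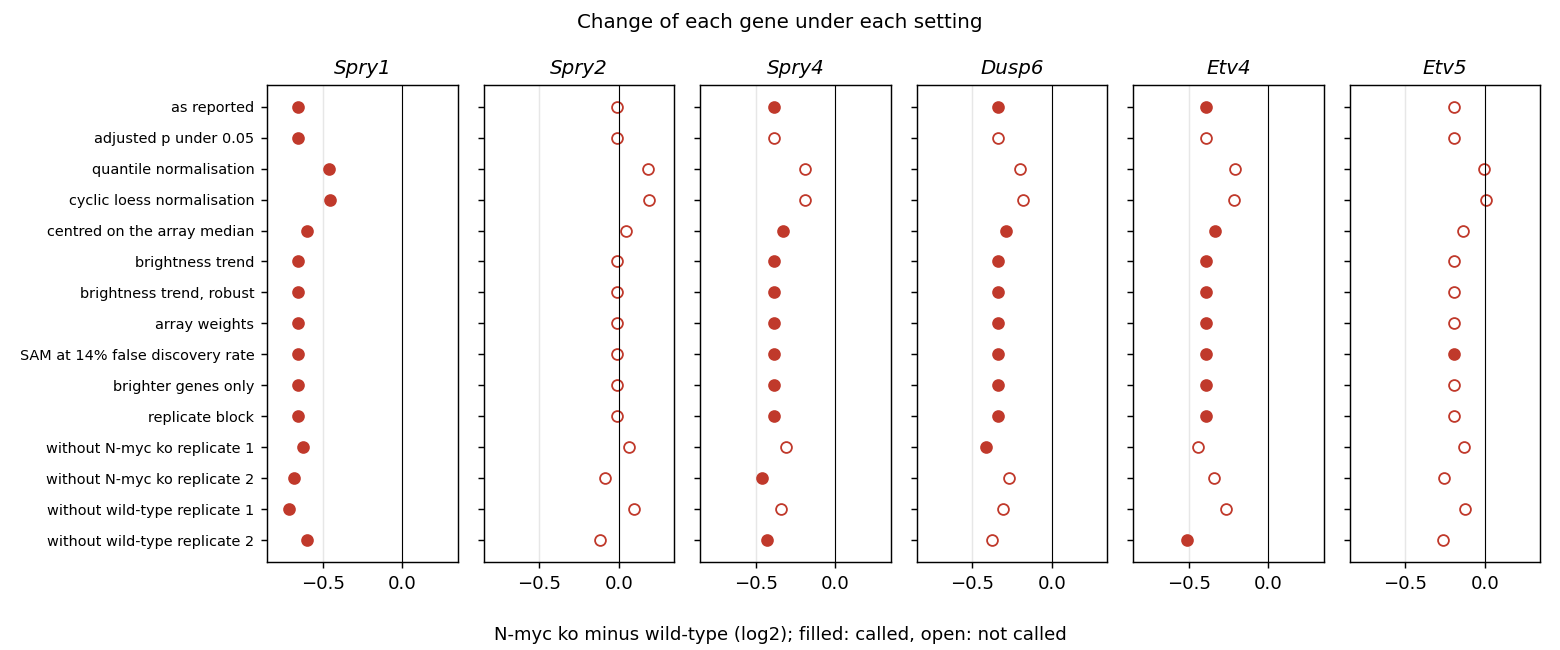
Log2 change, N-myc ko minus wild-type (horizontal axis), of each of the 6 genes as reported and under 14 alternative settings (rows), with filled points where the gene was called and open points where it was not. Spry1 is called in every row, from -0.71 to -0.45, while Spry4, Dusp6 and Etv4 lose their calls under both further normalisations, at an adjusted p under 0.05 and without certain arrays.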

How the data were processed

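RNA of whole cochleae was amplified with a whole-transcript kit, biotinylated and measured on microarrays, 2 N-myc ko and 2 wild-type, per the labels' protocols. The deposited values are on the log2 scale, and the authors made them with RMA (background correction, normalisation within and between arrays, 1 value per gene), per the design text of the series. Per the submitters' processing notes, RMA and affy were used. No array design, version or genome build is stated in the sources used here, and no scanner file was used. Precision is limited by the number of arrays, and p-values cover only the spread among these samples, which the labels call biological replicates.

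The table pairs none of its 23879 Ensembl IDs with a name, and the RefSeq gene table used here gives an Ensembl ID for 0 of its 49997 genes, so no match could be made. The symbols of the 6 members came with the list of IDs. Mycn, the other FGF pathway genes and the cell type markers that had been listed by symbol were therefore not analysed here, so neither the loss of N-myc nor the tissue was checked. The members and lists were chosen with earlier results of these data known.

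The limma package (3.58.1, R 4.3.3; lmFit and eBayes, two-sided, Benjamini-Hochberg over all genes, 2 residual and 4.33 prior degrees of freedom) was fitted to N-myc ko minus wild-type. The fit was also run on simulated data with equal noise in every gene. These held no shift with brightness, so that run does not bear on such a shift. All 6 members are named. Alternatives were a limit of 0.05, quantile and cyclic loess normalisation, median centring, a brightness trend (plain and robust), array weights, SAM over the 6 label arrangements, the brighter genes alone, a replicate block, leaving out each array, and a brightness window of 0.5. Promoter sequences are RefSeq's (GRCm38.p6).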

Additional observations from a re-analysis of the deposited data

How the results depend on the processing

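Spry1 kept its direction and call under all 14 alternatives. At an adjusted p under 0.05 1 member was called lower in place of 4, with Spry4 at -0.39 (adjusted p = 0.052), Dusp6 at -0.34 (0.0651) and Etv4 at -0.39 (0.0682) no longer called, and all genes called lower and higher came to 1958 and 1614, against 4719 and 3561 as reported. After quantile normalisation 1 member and 2414 genes were called lower, Spry4 (-0.19), Dusp6 (-0.20) and Etv4 (-0.21) lost their calls and Spry2 turned to 0.18. After cyclic loess 1 member and 2316 genes were called lower, Spry4 (-0.19), Dusp6 (-0.18) and Etv4 (-0.22) lost their calls, Spry2 turned to 0.19 and Etv5 to 0.0096. Median centring, which adds the same amount to every gene's change, turned Spry2 to 0.044. SAM called Etv5 (-0.19) as well, and 7849 genes lower and 6168 higher. Among the brighter genes, of which fewer (11939) are tested, 4065 (34%) were called lower and 692 (5.8%) higher. The same 4 members were called lower there. Without 1 array the members called lower ranged from 1 to 3, Spry2 from -0.12 to 0.099 (positive without N-myc ko replicate 1, at 0.065, and without wild-type replicate 1), Spry4 from -0.46 to -0.31, Dusp6 from -0.41 to -0.27, Etv4 from -0.51 to -0.27, genes called lower from 1715 to 3515 and genes called higher from 1436 to 3044. These fits hold fewer arrays and take the spread of the lone array from the group that keeps 2. The replicate numbers share no stated origin, and the deviations of same-numbered arrays correlated at 0.12 across genes. With the replicate block 5057 genes were called lower and 3778 higher, and the 4 members kept their calls (Spry1 at adjusted p = 0.0305). The wider brightness window moved no member's distance to its neighbours by more than its SE. Causes were not tested.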
